A study of Mus musculus with 47 samples.

Results

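Cyclic AMP-dependent protein kinase (PKA) and the transcription factor CREB form a signalling chain that hippocampal neurons use to turn synaptic activity into new transcription. Without cAMP, PKA is a tetramer of 2 regulatory and 2 catalytic subunits in which the catalytic subunits are held inactive. Binding of cAMP to the regulatory subunits frees the catalytic subunits, which phosphorylate CREB and many other proteins, and phosphorylated CREB recruits the histone acetyltransferases CBP and p300. In the hippocampus the chain is best known for its part in lasting synaptic plasticity and memory.

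The mRNAs described here are those of 10 genes among the 35486 genes of the hippocampal count table. They are taken by name, with no threshold on their values. Prkaca and Prkacb encode the catalytic subunits, Prkar1a and Prkar1b the type I regulatory subunits, and Prkar2a and Prkar2b the type II regulatory subunits. Creb1 encodes CREB, Crebbp and Ep300 encode CBP and p300, and Crtc1 encodes a coactivator that enters the nucleus and binds CREB when neurons are active. All 10 were among the 17778 genes that passed the filter on low counts, and they had between 98 and 23793 reads in each library.

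Hippocampal RNA was sequenced in 47 libraries from male mice, which the study's methods describe as C57BL/6J, given daily intraperitoneal injections of vehicle (Veh) or of PF4, a chemokine that platelets release. The groups were Young Veh (n = 13, 3.75 to 5.26 months old), Young PF4 (n = 12, 4.08 to 5.03 months), Old Veh (n = 12, 17.47 to 19.97 months) and Old PF4 (n = 10, 17.4 to 20.23 months). The comparisons ask how these mRNAs differ with age, how they differ with PF4 at each age, and whether the difference with PF4 depends on age. The numbers in the labels run from 1 to 23 for the libraries of old mice and from 24 to 48 for those of young mice. Within the old mice, Old Veh libraries hold numbers 1 to 12 and Old PF4 libraries 13 to 23, while the young groups are interleaved. Anything that ran with this numbering cannot be told apart from age, nor from PF4 in old mice. The same holds for the difference of the PF4 effects between ages.

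Total counts ranged from 2242879 to 21112908 reads per library (median 10374007), and of the 8 libraries with the lowest totals 4 were Old Veh. Neuronal markers summed to between 5122 and 7203 CPM (counts scaled to the size of the library) and markers of hippocampal excitatory neurons to between 991.4 and 1480 CPM, and no marker on any list was at 0 in a group. Striatal markers, which check for tissue from outside the hippocampus, summed to between 20.58 and 51.0 CPM. Markers of the choroid plexus, the epithelium beside the hippocampus that secretes cerebrospinal fluid, varied from 12.02 to 4259 CPM among libraries. Their median was 1943 CPM in Young Veh, 2380 in Young PF4, 47.1 in Old Veh and 65.89 in Old PF4, and 0 of the 10 were called by edgeR between any groups. Of the markers of other cell types, 1 of 5 astrocyte markers was higher and 1 was lower in Old Veh than in Young Veh, and 0 of the neuronal, oligodendrocyte, microglial and endothelial markers were called in that comparison. Between Old PF4 and Young PF4, 1 of 5 astrocyte and 1 of 5 microglial markers were higher and 0 of the neuronal, oligodendrocyte and endothelial markers were called. Marker lists were read at the tissue level, where fewer cells of a type and less RNA per cell cannot be told apart.

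A length index was computed for each library, on the log2 scale, from the deviation of each gene from its own mean over all libraries. The index was the mean deviation of the genes with the longest transcripts minus that of the genes with the shortest. These were the upper and lower quartiles of length, at least 4594 and at most 2005.75 bases. It was lowest in its group in 4 libraries that recur below, Young Veh 4 (-0.348), Young PF4 4 (-0.163), Old Veh 12 (-0.0839) and Old PF4 8 (-0.228). Their totals were 19508854, 9166195, 12779357 and 12380047 reads, and Young Veh 4 was the deepest of its group. For several results that rest on these libraries, values with and without them are given.

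CREB binds the cAMP response element (CRE), TGACGTCA, which reads the same on both strands, and also a shorter element, TGACG on either strand (CGTCA on the other), which lies within the full element. The 250 bases before each RefSeq start site were searched on both strands, and 1 of the 10 genes had a full element and 4 had at least a short element. Among all 27025 genes with such a window, 1.77% had the full element and 19.8% a short element. Of 56 genes of the pathway lists below that had a window, 48.2% held a short element, and of the 15 CREB target genes among them 86.7% did. The 10 genes have more listed start sites per gene than all genes do, and per window the full element was in 4.35% of their 23 windows beside 1.55% of all 32851, and a short element in 26.1% beside 17.8%. The gene with the full element was Prkar1a, at a start site downstream of the first one listed, where the element began 49 bases before the start. It is shown with its flanks, from GRCm38 chr11:109650889-109650918 on the plus strand, with the element in capitals.
Prkar1a: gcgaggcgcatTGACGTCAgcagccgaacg
Short elements were present upstream of Prkaca, Prkacb, Prkar1a and Prkar1b. Those of the catalytic subunits are shown in capitals, from the first listed window of each gene up to its first annotated exon, at GRCm38 chr8:83972728-83972977 on the plus strand for Prkaca and chr3:146812991-146813196 on the minus strand for Prkacb.
Prkaca: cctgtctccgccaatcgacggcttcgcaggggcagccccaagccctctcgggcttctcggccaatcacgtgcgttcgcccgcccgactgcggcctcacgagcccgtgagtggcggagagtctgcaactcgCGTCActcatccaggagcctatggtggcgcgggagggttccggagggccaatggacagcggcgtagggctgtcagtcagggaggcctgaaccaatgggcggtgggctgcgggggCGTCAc
Prkacb: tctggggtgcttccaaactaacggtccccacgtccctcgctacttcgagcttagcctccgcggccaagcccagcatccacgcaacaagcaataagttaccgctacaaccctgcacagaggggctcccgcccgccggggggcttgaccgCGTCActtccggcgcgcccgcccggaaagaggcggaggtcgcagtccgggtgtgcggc
The upstream sequence of Prkar2b is shown because this gene carried the age difference described below, and because among the 10 genes its level followed that of Prkacb most closely. It lies at GRCm38 chr12:32061297-32061527 on the minus strand and holds neither motif, so that no letters are in capitals.
Prkar2b: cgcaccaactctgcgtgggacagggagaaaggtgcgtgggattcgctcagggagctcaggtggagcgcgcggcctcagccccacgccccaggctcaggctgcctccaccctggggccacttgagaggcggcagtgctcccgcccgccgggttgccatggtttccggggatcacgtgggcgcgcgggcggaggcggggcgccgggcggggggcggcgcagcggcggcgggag
A match describes these letters only, and binding was not measured. No motif was found in the windows of Prkar2a, Prkar2b, Creb1, Crebbp, Ep300 or Crtc1.

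Levels per length placed the type I regulatory subunits and the catalytic subunits far above the type II subunits and the CREB regulators. In CPM per kb of merged exons, the median over the 47 libraries was 256 for Prkar1a, and its lowest library (237) lay above the highest library of every other gene. Prkar1b (131) and Prkaca (113) came next, and their ranges of 85.3 to 150 and 101 to 126 overlapped. Prkacb followed at 48.7, with a range of 41.4 to 56.6 that overlapped neither neighbour. Crebbp (21.5), Prkar2b (16.1), Crtc1 (15) and Prkar2a (13.0) formed a group in which each range overlapped that of the next gene. Creb1 (4.03) and Ep300 (3.19) were lowest, with ranges that overlapped each other and lay below those of the other 8 genes. With the longest transcript as the length, Prkacb stood at 98.2 beside 124 for Prkaca, and of neighbouring genes only Crtc1 (16.3) and Prkar2a (16.7) exchanged places.

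**Figure D1:**
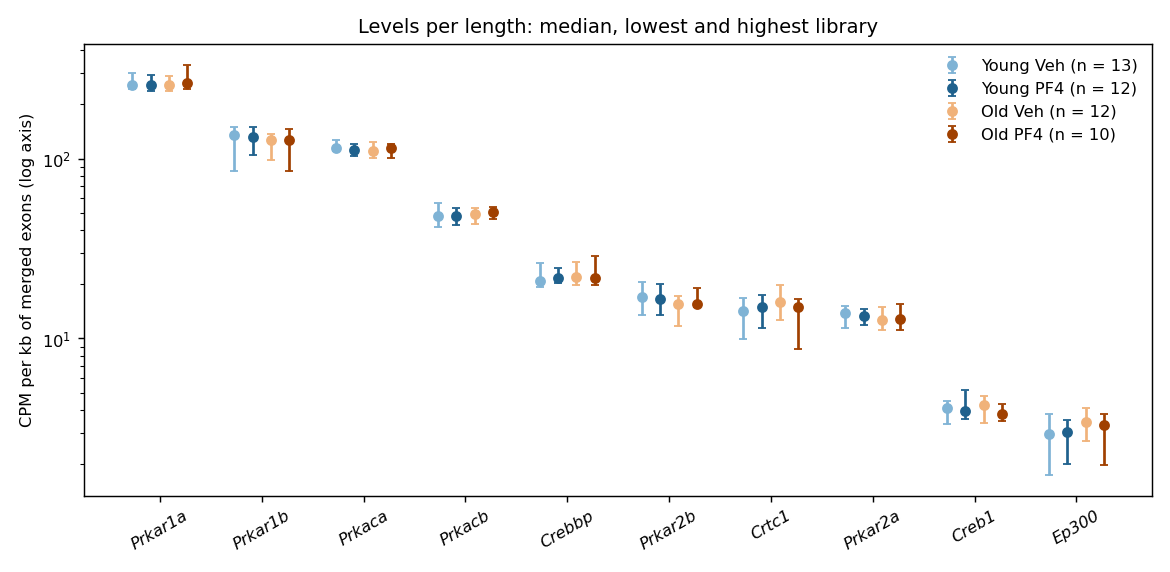
Level of each gene in CPM per kb of merged exons (log axis), with the median of each group as a point and the lowest and highest library as bars. Prkar1a stands highest at a median of 256 over all libraries and Ep300 lowest at 3.19, and within each gene the bars of the 4 groups overlap.

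The make-up of the kinase pool is given as shares of mRNA per length, with the spread between libraries and no test. Prkacb made up 29.8% ± 1.65 (SD, n = 13) of catalytic subunit mRNA per length in Young Veh, 29.9% ± 1.80 (n = 12) in Young PF4, 30.1% ± 2.08 (n = 12) in Old Veh and 30.8% ± 2.00 (n = 10) in Old PF4. Among regulatory subunits, Prkar1a made up 61.2% ± 3.67 in Young Veh, 61.3% ± 2.64 in Young PF4, 63.3% ± 2.42 in Old Veh and 63.2% ± 4.51 in Old PF4. The share of Prkar1b, whose product is found mainly in brain, was 31.4% ± 3.29, 31.5% ± 2.47, 29.9% ± 2.16 and 30% ± 4.31 in the same order. Prkar2b made up 4.11% ± 0.388, 4.02% ± 0.296, 3.68% ± 0.313 and 3.76% ± 0.329, and Prkar2a 3.22% ± 0.248, 3.16% ± 0.214, 3.10% ± 0.260 and 3.03% ± 0.214. The type II subunits together thus gave 7.33% ± 0.49 of regulatory mRNA in Young Veh and 6.78% ± 0.47 in Old Veh, and the ranges, 6.10 to 7.96% and 6.07 to 7.68%, overlapped. Shares rest on the lengths used, and 35 of 48 share values moved by over 1 SD when lengths were left out or replaced.

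With age, Prkar2b was the single gene of the 10 that changed past the threshold, and it was lower in old mice. Its product is the type II beta regulatory subunit, which tethers PKA to anchoring proteins in neurons. Levels of Prkar2b ran from 49.1 CPM through a median of 62.4 to 75 in Young Veh, and from 43 through 56.9 to 62.8 in Old Veh. In 11 of 12 Old Veh libraries the level lay below the Young Veh median, 2 lay below every Young Veh library, and the groups overlapped. The log2 fold change of Old Veh against Young Veh was -0.21 (SE 0.06, 95% interval -0.33 to -0.09) with an adjusted p of 0.0484, and the level fell by 13.3%. This is a small difference close to the threshold: it ranked 481st of the 492 genes called among 17778 tested. Of all genes tested, 2.77% were called in either direction and 0.607% were called lower, and 1 of the 10 genes here was called.

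The difference in Prkar2b kept its sign in every alternative run, and its call did not. The adjusted p was 0.124 without the 8 libraries of lowest total count, 0.0823 with the replicate number as a block and 0.0916 with the 2 groups fitted alone. Leaving out single libraries moved the log2 fold change between -0.24 (without Young Veh 4) and -0.17 (without Old Veh 10) and the adjusted p between 0.011 and 0.104. The call was lost without any one of Old Veh 1, 2, 3, 4, 6, 7, 10 and 12 or Young Veh 1, 2, 3, 5, 6, 8, 9, 10 and 13. Without the library of lowest length index in each group the value was -0.22 (SE 0.06, adjusted p = 0.0131). DESeq2 gave -0.20 (SE 0.06, adjusted p = 0.0359), with 3.8% of 16483 genes called. With the choroid plexus score as a covariate the value was -0.24 (adjusted p = 0.0293).

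**Figure D2:**
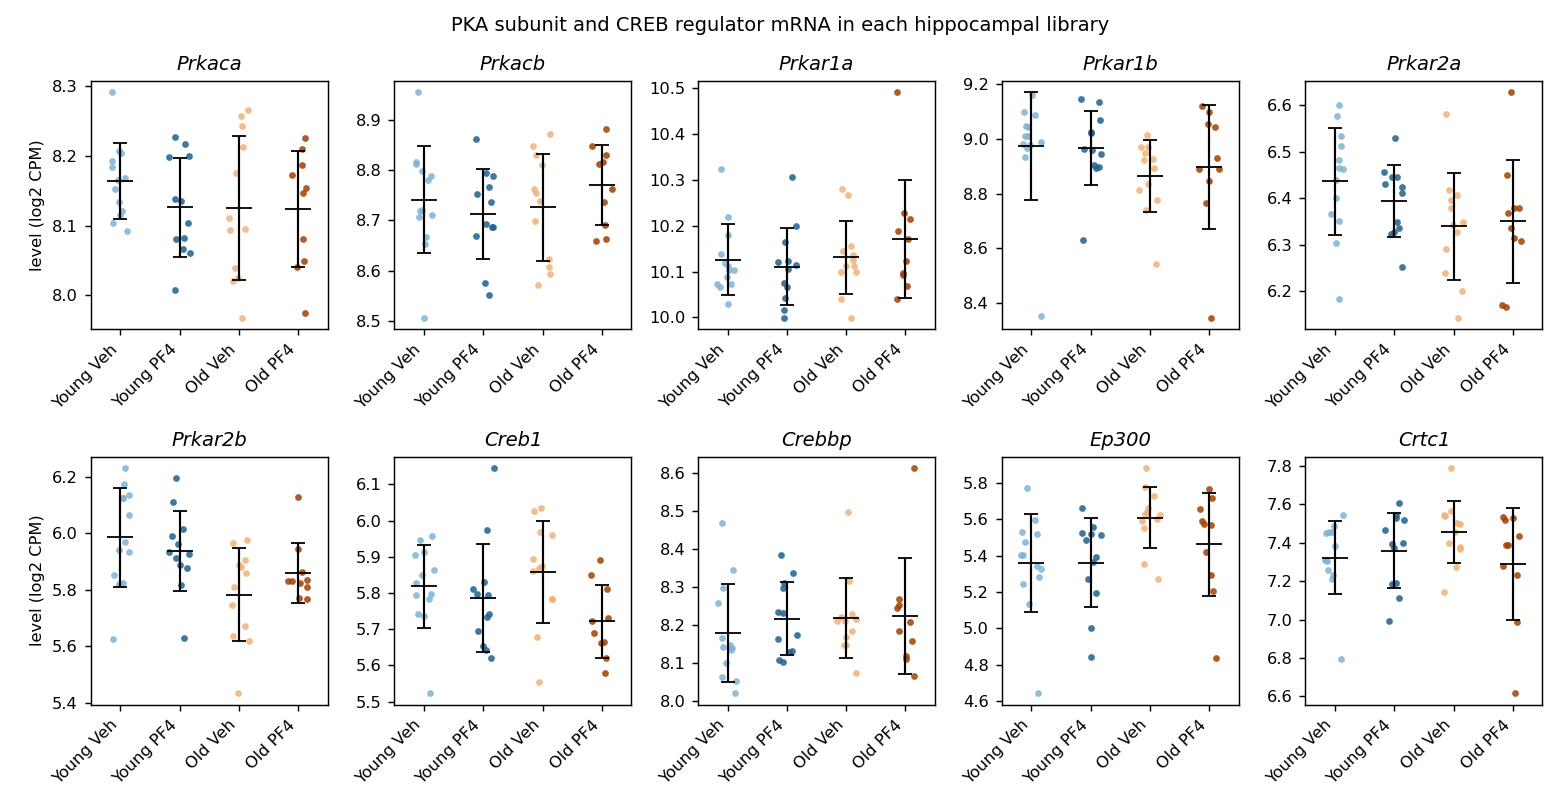
Level of each gene in log2 CPM in every library, as points by group, with the group mean (horizontal line) and SD (bars). Prkar2b sits lower in Old Veh, with 11 of 12 libraries below the Young Veh median, and Old PF4 8 is at an end of its group for Prkar1a, Prkar1b, Crebbp, Ep300 and Crtc1.

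The other regulatory subunits differed less with age. Prkar2a, which encodes the more widely expressed type II alpha subunit, ranged from 72.5 CPM (median 88.0) to 96.9 in Young Veh and from 70.5 (median 81.1) to 95.5 in Old Veh, with 11 of 12 Old Veh libraries below the Young Veh median. Its log2 fold change was -0.10 (SE 0.05, 95% interval -0.19 to -0.01) with an unadjusted p of 0.0305 and an adjusted p of 0.261. Prkar1b ranged from 326 (median 515) to 572 CPM in Young Veh and from 373 (median 481) to 517 in Old Veh. Here too 11 of 12 Old Veh libraries lay below the Young Veh median, and the log2 fold change was -0.12 (SE 0.07, adjusted p = 0.403). Its lowest Young Veh library, Young Veh 4, lay below every Old Veh library. Without the library of lowest length index in each group the value for Prkar1b was -0.13 with a smaller standard error of 0.04 and an adjusted p of 0.0513. With the length index as a covariate, which raised the share of genes called to 5.07%, Prkar1b (-0.18, adjusted p = 0.0413), Prkar2a (-0.13, adjusted p = 0.0482) and Prkar2b (-0.25, adjusted p = 0.00374) were all called. Prkar1a, the most abundant of the family, differed by 0.01 (SE 0.04, 95% interval -0.07 to 0.09).

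The catalytic subunits showed no difference with age that passed the test, and their intervals were narrow. Prkaca, the major catalytic subunit, ran from 273 CPM (median 287) to 313 in Young Veh and from 250 (median 275) to 308 in Old Veh, and its log2 fold change was -0.04 (SE 0.03, 95% interval -0.11 to 0.03). Prkacb ran from 363 (median 422) to 496 and from 380 (median 429) to 468 CPM, and its log2 fold change was -0.01 (SE 0.04, 95% interval -0.10 to 0.07).

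Among the CREB regulators, Ep300 had the largest age difference, and it did not pass the test. Ep300 ranged from 24.8 CPM (median 42.2) to 54.5 in Young Veh and from 38.5 (median 49.2) to 58.8 in Old Veh, with 10 of 12 Old Veh libraries above the Young Veh median. The log2 fold change was 0.23 (SE 0.09, 95% interval 0.05 to 0.42), with an unadjusted p of 0.0148 and an adjusted p of 0.183. Without Young Veh 4, the lowest library of its group, it was 0.18. Crtc1 ran from 111 (median 159) to 187 CPM in Young Veh and from 141 (median 178) to 221 in Old Veh, a log2 fold change of 0.13 (SE 0.08, adjusted p = 0.448). With the length index as a covariate the age values were 0.14 (SE 0.08) for Ep300 and 0.07 (SE 0.07) for Crtc1, and with the choroid plexus score that of Crtc1 was 0.06 (SE 0.08). Creb1 differed by 0.04 (SE 0.05, 95% interval -0.07 to 0.15) and Crebbp by 0.04 (SE 0.05, 95% interval -0.06 to 0.14). The median of the 10 log2 fold changes was -0.004, beside -0.013 over all genes tested, and 5 of the 10 were above 0.

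The age difference was also read in the mice given PF4 and over both treatments. Between Old PF4 and Young PF4, where 0.332% of all genes were called by edgeR and 0.446% of 20160 by DESeq2, 0 of the 10 genes were called by edgeR or DESeq2 and 0 had an unadjusted p below 0.05, beside 1471 of all 17778 genes by edgeR. Prkar2b had the lowest value of the 10 there, -0.08 (SE 0.06, 95% interval -0.21 to 0.05, adjusted p = 0.818), with 8 of 10 Old PF4 libraries below the Young PF4 median. Averaged over vehicle and PF4, a contrast that shares all its old and young vehicle libraries with the first, Prkar2b was -0.14 (SE 0.04, adjusted p = 0.048), Prkar2a -0.07 (SE 0.03, adjusted p = 0.225) and Ep300 0.17 (SE 0.07, adjusted p = 0.154), with 4.71% of genes called. That contrast was added after the data had been seen.

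**Figure D3:**
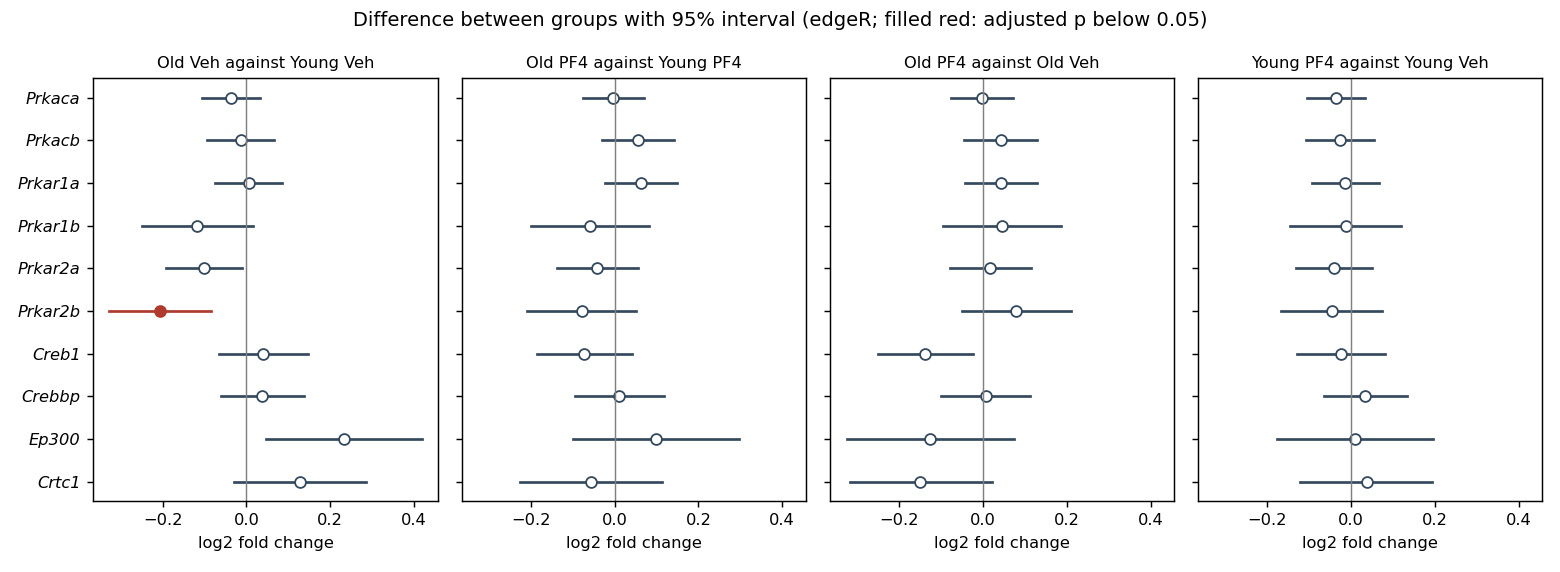
Log2 fold change of each gene in 4 comparisons (points) with its 95% interval (lines), from edgeR's fit of all libraries. The single filled red point is Prkar2b in Old Veh against Young Veh at -0.21, and the intervals of Creb1 (Old PF4 against Old Veh), Prkar2a and Ep300 (Old Veh against Young Veh) also leave out 0 without passing the adjusted threshold.

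In old mice, PF4 was not accompanied by a change in any of the 10 genes that passed the test. Between Old PF4 and Old Veh edgeR and DESeq2 each called 0 of 10, beside 0.0337% of 17778 genes called by edgeR and 0.167% of 14382 by DESeq2. Of the 10, 1 gene (Creb1) had an unadjusted p below 0.05, beside 1102 of all 17778 genes. Creb1 ran from 46.8 CPM (median 58.4) to 65.4 in Old Veh and from 47.6 (median 52.0) to 59.1 in Old PF4. In 9 of 10 Old PF4 libraries it lay below the Old Veh median, and the groups overlapped. Its log2 fold change was -0.14 (SE 0.06, 95% interval -0.25 to -0.02), with an unadjusted p of 0.0194 and an adjusted p of 0.694. It was -0.08 (SE 0.05, adjusted p = 0.733) with the length index as a covariate, -0.16 (SE 0.05, adjusted p = 0.316) without the library of lowest length index in each group and -0.17 (SE 0.05, adjusted p = 0.271) with the replicate block. Of the other CREB regulators, Crtc1 was at -0.15 (SE 0.08, adjusted p = 0.872), Ep300 at -0.13 (SE 0.10, adjusted p = 0.955) and Crebbp at 0.01 (SE 0.05). With the length index as a covariate, Crtc1 was at -0.09 (SE 0.08) and Ep300 at -0.03 (SE 0.08), and without the library of lowest length index in each group they were at -0.11 (SE 0.07) and -0.09 (SE 0.08). The lowest Crtc1 level of all libraries, 97.9 CPM, was that of Old PF4 8, and the other end of the Old PF4 range was 185.

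The values of the 6 PKA subunits with PF4 in old mice lay between -0.003 and 0.08, and none passed the test. Prkar2b, with 54.3 CPM (median 56.8) to 69.8 in Old PF4, had the highest value, 0.08 (SE 0.07, 95% interval -0.05 to 0.21). This comparison shares its Old Veh libraries with that of age. The values for Prkar1b, Prkacb and Prkar1a were 0.05 (SE 0.07), 0.04 (SE 0.04) and 0.04 (SE 0.04), and those for Prkar2a and Prkaca were 0.02 (SE 0.05) and -0.003 (SE 0.037). The widest of these 6 intervals, that of Prkar1b, ran from -0.10 to 0.19. A fit with the length index as a covariate gave 0.13 (SE 0.06, adjusted p = 0.576) for Prkar2b, 0.12 (SE 0.06, adjusted p = 0.654) for Prkar1b, 0.08 (SE 0.04, adjusted p = 0.599) for Prkacb and 0.05 (SE 0.05, adjusted p = 0.818) for Prkar2a. Prkar1a fell to 0.01 (SE 0.04) in that fit, and Prkaca was at -0.005 (SE 0.037). Without the library of lowest length index in each group, the 6 values lay between 0.006 (Prkaca) and 0.08 (Prkar2b). Prkar1a was then at 0.02 (SE 0.03) and Prkar1b at 0.07 (SE 0.04). The median over the 10 genes was 0.012, beside 0.009 over all genes, in the fit of all libraries without the length index.

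In young mice the values with PF4 lay between -0.05 (Prkar2b, SE 0.06) and 0.04 (Crtc1, SE 0.08). Neither tool called any of the 10 and 0 had an unadjusted p below 0.05. Each tool called 0% of all genes, and by edgeR 213 had an unadjusted p below 0.05. Young Veh and Young PF4 overlapped in every one of the 10. Young PF4 ran from 49.3 CPM (median 60.8) to 73.1 for Prkar2b, from 49.0 (median 54.3) to 70.6 for Creb1 and from 28.5 (median 43.2) to 50.4 for Ep300.

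The test of whether the PF4 difference depended on age called 0 of the 10 genes and 0% of all genes by edgeR or DESeq2, with 0 and 707 respectively at an unadjusted p below 0.05 by edgeR. The largest values were those of Crtc1 (-0.185 on the log2 scale as the old difference minus the young one, 95% interval -0.42 to 0.05), Ep300 (-0.14, 95% interval -0.41 to 0.14), Prkar2b (0.13, 95% interval -0.05 to 0.30) and Creb1 (-0.11, 95% interval -0.27 to 0.04). Those of Crtc1, Ep300 and Creb1 were -0.11, -0.02 and -0.04 with the length index as a covariate, and with the replicate block those of Prkar2b and Ep300 were 0.08 and -0.20.

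Within groups, some of the 10 genes varied together from library to library, some ran opposite, and the rest showed no relation past the threshold. After group means were removed, 21 of the 45 pairs had a correlation past an adjusted p of 0.05 over the 47 libraries, 14 positive and 7 negative (permutation tests, two-sided, 100000 resamples). The weakest of them had an r of 0.367 in size. Correlations of at least that size were common in these libraries: they were present in 46.7% of the pairs here, in 35% of all pairs among the 6580 genes of like level (a mean of at least 5 log2 CPM) and in 14.1% of pairs among all genes tested, so the count says little about these 10 genes in particular. The strongest positive pair was Prkacb and Prkar2b, a catalytic and a type II regulatory subunit (Pearson's r = 0.715, permutation p = 1e-05, the smallest these resamples can give, adjusted p = 5.63e-05, Spearman's rho = 0.664). Its r was 0.654 without the 2 libraries farthest from the median of Prkacb, 0.723 without the 8 libraries of lowest total count, 0.606 with the length index removed and 0.652 without the library of lowest length index in each group. The 2 catalytic subunits did not vary together (r = -0.0661, permutation p = 0.659).

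A second pattern set Prkar1a and Crebbp against Ep300, Crtc1 and Prkar1b. Prkar1a and Crebbp varied together (r = 0.709, rho = 0.541), while Prkar1a with Ep300 (r = -0.733, rho = -0.53), Prkar1a with Crtc1 (r = -0.731, rho = -0.534), Crebbp with Prkar1b (r = -0.73, rho = -0.467) and Crebbp with Ep300 (r = -0.714, rho = -0.546) ran opposite, each with a permutation p of 1e-05 and an adjusted p of 5.63e-05. CBP and p300 are close relatives that acetylate many of the same histones, and their mRNAs were thus inversely related across libraries. The libraries Young Veh 4 and Old PF4 8 stood at the ends of this pattern, with 354 and 391 CPM of Crebbp, the highest of their groups, and 24.8 and 28.4 CPM of Ep300, the lowest of theirs.

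The second pattern was weaker without the 4 libraries of lowest length index. Without them r was -0.524 for Prkar1a with Ep300, -0.464 for Prkar1a with Crtc1, -0.433 for Crebbp with Ep300 and 0.373 for Prkar1a with Crebbp, each still past the adjusted threshold, and -0.258 for Crebbp with Prkar1b, which was not (adjusted p = 0.215). Prkar1a with Prkar1b went from -0.557 to 0.106, and by rank it was at -0.164 with all libraries, so that relation rests on those libraries. Prkar1b with Crtc1 went from 0.686 to 0.26 and Prkar1b with Ep300 from 0.637 to 0.0432. In turn Prkar1a with Prkacb went from 0.18 to 0.576 and Prkar1a with Prkar2b from 0.077 to 0.569, both with an adjusted p of 0.00135 without the 4. In all, 13 pairs (28.9%) passed without them, 6 positive and 7 negative, beside 14.5% of pairs among genes of like level that reached the size of the weakest of the 13. With the length index removed by regression 16 pairs (35.6%) passed, 8 of each sign, beside 22.4%.

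The levels also moved with the length index itself. Over the 47 libraries r was 0.654 for Creb1 (rho = 0.678, permutation p = 1e-05), 0.64 for Ep300 (rho = 0.337, p = 4e-05), 0.564 for Prkacb (rho = 0.455, p = 3e-05) and 0.498 for Prkar2b (rho = 0.356, p = 0.00039) by permutation tests, and -0.615 for Crebbp (rho = -0.366, p = 2e-05). Those of Prkar1b (0.637, rho = 0.205), Crtc1 (0.488, rho = 0.16) and Prkar1a (-0.465, rho = -0.108) were 0.305, 0.16 and -0.152 without the 2 libraries farthest from the median of the index, and so rested on them. Without the same 2 libraries r was 0.408 for Ep300, -0.395 for Crebbp and 0.37 for Prkar2b, so that their size also rested in part on those libraries, and it was 0.629 for Creb1 and 0.558 for Prkacb. The adjusted p of the first 5, over 10 tests, ran from 8e-05 to 0.00065. The values for Prkar2a and Prkaca were 0.446 (rho = 0.33) and -0.0399 (rho = -0.203), and 0.323 and -0.268 without the 2 libraries. Creb1, Crebbp, Ep300, Crtc1 and Prkar2a are themselves among the genes of longest transcript from which the index was made. Their r is thus not fully independent of it. The share of all genes that reach such an r with the index was not computed, so these values are not particular to the 10 genes.

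**Figure D4:**
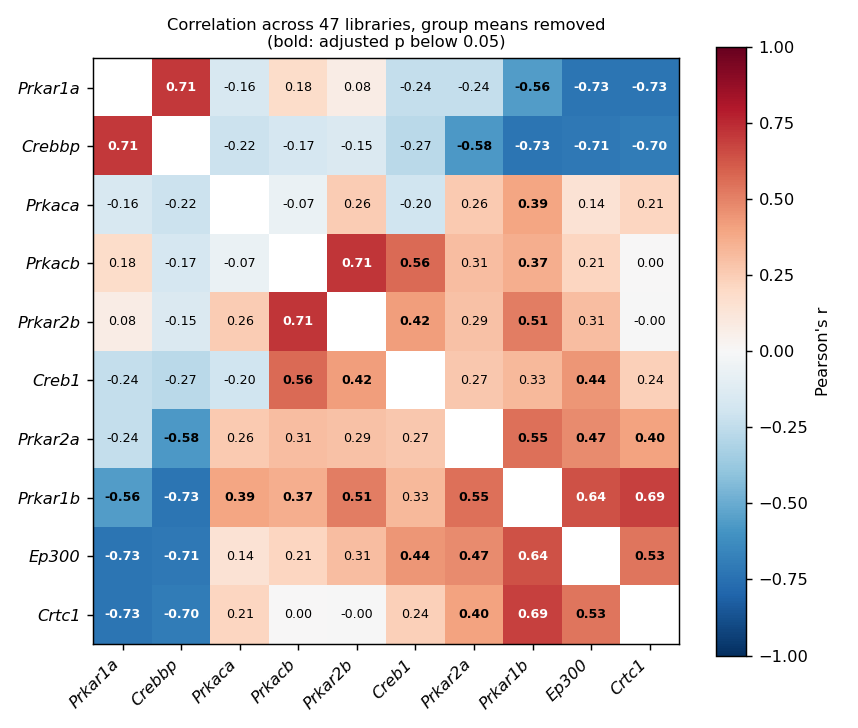
Pearson's r of log2 CPM for each of the 45 pairs of genes over the 47 libraries after group means were removed, from blue (negative) to red (positive), in bold where the adjusted p is below 0.05. Prkar1a and Crebbp form a red pair (0.71) that is blue against Ep300, Crtc1 and Prkar1b. Prkacb with Prkar2b has the highest r (0.715), and Prkar1b is red with Crtc1 (0.686) and Ep300 (0.637).

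The genes most like Prkar2b across the 47 libraries, among 6570 genes of sufficient level and other than the 10, were Dner (r = 0.784), a Notch-related receptor of neurons, Gng4 (r = 0.769), a G protein gamma subunit, and Dpp10 (r = 0.689), an auxiliary subunit of A-type potassium channels. Their log2 fold changes of Old Veh against Young Veh were -0.12 (SE 0.05, adjusted p = 0.168), -0.22 (SE 0.11, adjusted p = 0.329) and -0.22 (SE 0.10, adjusted p = 0.271), and none of the 3 passed the test.

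Of the rest of the pathway, the anchoring proteins (AKAPs), which hold PKA at particular sites in the cell, held the smallest adjusted p with age among the 6 lists below and, by edgeR, their only call with PF4. Of 12 AKAP genes tested, 2 were called higher and 0 lower in Old Veh than in Young Veh, beside 2.77% of all genes called in either direction. In 11 of 12 the value was above 0, beside 45.3% of all genes, and the median was 0.074 beside -0.013. Between Old PF4 and Young PF4, 2 of the 12 were called higher, beside 0.332% of all genes called in either direction. In that comparison 5 of 12 values lay above 0 beside 51.7% of all genes, and the median was -0.032 beside 0.004. Akap11, an anchor of PKA that also binds GSK3 beta and protein phosphatase 1, ran from 264 CPM (median 282) to 312 in Young Veh and from 337 (median 358) to 388 in Old Veh. The 2 groups did not overlap, and the log2 fold change was 0.35 (SE 0.03, adjusted p = 3.54e-11). In Old PF4 it ran from 299 (median 319) to 340, with 9 of 10 libraries below every Old Veh library, and the log2 fold change against Old Veh was -0.17 (SE 0.03, adjusted p = 0.0347). That call was lost without the 8 libraries of lowest total count (adjusted p = 0.188), with the 2 groups alone (0.165), with the length index as a covariate (0.065), and in 11 of 22 fits that each left out 1 library (Old PF4 3, 5, 6, 7, 8 or 9 or Old Veh 1, 2, 3, 5 or 7), with adjusted p from 0.0104 to 0.0707 over the 22. Akap11 was already known from earlier results of these data when the list was made, and is no independent support.

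Akap6, which anchors PKA at the nuclear envelope, was also higher with age. It ran from 149 CPM (median 162) to 202 in Young Veh and from 167 (median 189) to 216 in Old Veh, and all 12 Old Veh libraries lay above the Young Veh median. The highest Young Veh library, at 202, was again Young Veh 4. The log2 fold change was 0.23 (SE 0.04, adjusted p = 0.00045), and it was called in all 25 fits that each left out 1 library. In mice given PF4 the age difference was 0.20 for Akap6 (SE 0.04, adjusted p = 0.0177) and 0.19 for Akap11 (SE 0.03, adjusted p = 0.00179). That of Akap6 lost its call without the 8 libraries of lowest total count (adjusted p = 0.129) and with the choroid plexus score as a covariate (0.0556).

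Among the enzymes that make and break down cAMP, 0 of 11 genes for adenylyl cyclases and stimulatory G protein subunits and 1 of 16 phosphodiesterases were called with age, beside 2.77% of all genes. Pde7b, a cAMP-specific phosphodiesterase, ran from 13.3 CPM (median 16.5) to 20.4 in Young Veh, from 17.1 (median 21.6) to 25.7 in Old Veh and from 13.5 (median 15.8) to 20.7 in Old PF4. All 12 Old Veh libraries lay above the Young Veh median, with a log2 fold change of 0.32 (SE 0.07, adjusted p = 0.00422). All 10 Old PF4 libraries lay below the Old Veh median, with a log2 fold change of -0.33 (SE 0.07) that missed the threshold by edgeR (adjusted p = 0.0833) and passed it by DESeq2 (adjusted p = 0.0309), with the choroid plexus score as a covariate (0.0494) and without Old Veh 11 (0.0193). Without the 8 libraries of lowest total count the adjusted p was 0.345 and with the 2 groups alone it was 0.231. Both comparisons share the Old Veh libraries. Between Old PF4 and Young PF4 the value of Pde7b was 0.08 (SE 0.08, adjusted p = 0.847). The smallest unadjusted p of the cyclase list with age was that of Adcy1, a calcium-stimulated adenylyl cyclase of neurons, at 0.10 (SE 0.05, p = 0.0508, adjusted p = 0.332), so that 0 of the 11 had an unadjusted p below 0.05. Its value was 0.06 (SE 0.05, adjusted p = 0.663) with the choroid plexus score as a covariate. With PF4 in old mice, Adcy1 was at -0.17 (SE 0.05, p = 0.00226, adjusted p = 0.386), and all 10 Old PF4 libraries lay below the Old Veh median.

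The PKA inhibitors and other cAMP effectors had 0 of 6 called by edgeR with age, beside 2.77% of all genes, and 2 (Rapgef4 and Pkib) had an unadjusted p below 0.05, beside 2699 of all 17778 genes. The nearest to the threshold was Rapgef4, which encodes the exchange factor EPAC2, at 0.12 (SE 0.04, adjusted p = 0.0918). The adjusted p of Rapgef4 was 0.0483 by DESeq2, 0.329 with the choroid plexus score as a covariate (where the value was 0.08), 0.194 without the 8 libraries of lowest total count, 0.166 without a count filter and 0.128 with the 2 groups alone, and it ran from 0.0494 (without Old Veh 10, the 1 such fit that called it) to 0.18 over 25 fits that each left out 1 library. An antisense gene, Rapgef4os2, shares 337 exon bases with it and had 24609 reads beside 307653. Without strand information, reads within the shared bases cannot be told apart.

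Among 10 relatives and regulators of CREB, 1 was called lower and 1 higher with age, beside 0.607% of all genes called lower and 2.77% in either direction. Sik1, a salt-inducible kinase that keeps CRTC coactivators in the cytoplasm and is itself induced through CREB, ran from 3.38 CPM (median 4.74) to 10.2 in Young Veh and from 1.82 (median 3.08) to 6.25 in Old Veh. In 9 of 12 Old Veh libraries it lay below every Young Veh library, and the log2 fold change was -0.69 (SE 0.17, adjusted p = 0.0112). These are few reads, 9 in the lowest Old Veh library. With the choroid plexus score as a covariate the value was -0.53 (adjusted p = 0.0592). Rps6ka5, which encodes the CREB and histone kinase MSK1, ran from 25.4 (median 27.9) to 36.9 CPM in Young Veh and from 29 (median 33.8) to 36.6 in Old Veh, a log2 fold change of 0.20 (SE 0.06, adjusted p = 0.0365). All 12 Old Veh libraries lay above the Young Veh median. It was called in 11 of 25 fits that each left out 1 library and lost its call without Old Veh 2, 3, 4, 5, 6 or 8 or Young Veh 2, 4, 6, 7, 8, 9, 10 or 11, and also without the 8 libraries of lowest total count (adjusted p = 0.182), without a count filter (0.053), with the length index as a covariate (0.0547) and with the 2 groups alone (0.0602). Between Old PF4 and Young PF4 neither was called, with Sik1 at -0.54 (SE 0.17, adjusted p = 0.223) and Rps6ka5 at 0.13 (SE 0.06, adjusted p = 0.505). The predicted gene Gm49703 shares 179 exon bases with Rps6ka5 on the same strand.

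Of 19 genes known as targets of CREB, among them Fos, Arc and Bdnf, edgeR called 0 with age or PF4. Of all genes tested it called 2.77% with age, 0.0337% with PF4 in old mice and 0% with PF4 in young mice, so 0 of 19 says little about these genes. The median log2 fold change of the 19 was 0.027 with age and 0.018 with PF4 in old mice. At an unadjusted p below 0.05 there were 3 with age (Nr4a3, Per1 and Dusp1) and 2 with PF4 in old mice (Sst and Per1), beside 2699 and 1102 of all 17778 genes respectively. The smallest unadjusted p with age was that of Nr4a3, an orphan nuclear receptor induced by neuronal activity, which ran from 14.3 CPM (median 17.0) to 19.7 in Young Veh and from 15.6 (median 22.2) to 39.1 in Old Veh. Its log2 fold change was 0.38 (SE 0.11, adjusted p = 0.0546, and 0.0278 by DESeq2), and 8 of 12 Old Veh libraries lay above every Young Veh library. The value was 0.28 without Old Veh 1, its highest library, and it was called without Old Veh 4, 11 or 12 or Young Veh 10 (adjusted p from 0.0218 to 0.0495) and without the library of lowest length index in each group (0.0263). The adjusted p of Nr4a3 was 0.262 without the 8 libraries of lowest total count, 0.135 with the choroid plexus score, 0.116 with the replicate block and 0.0751 with the length index. Across all 6 lists, 0 genes were called by edgeR between Young PF4 and Young Veh or for the difference of the PF4 effects between ages.

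**Figure D5:**
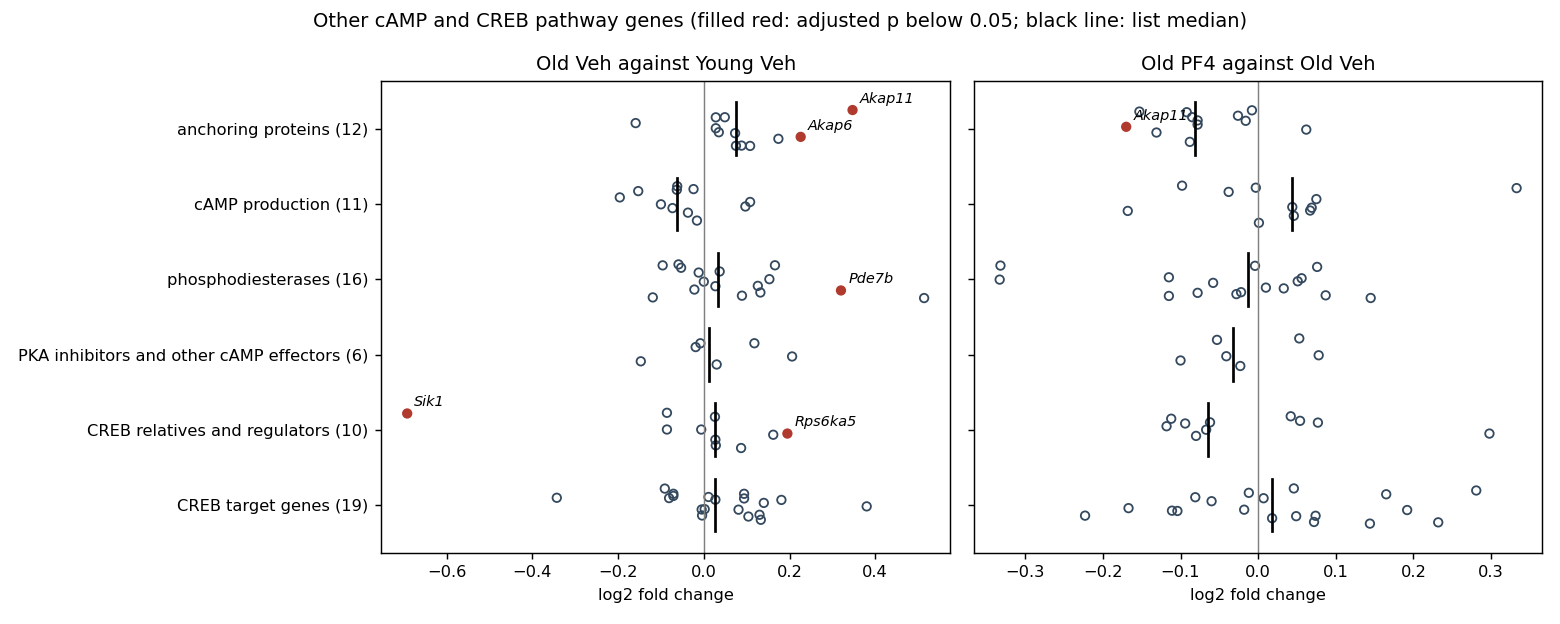
Log2 fold change of every tested gene of 6 lists (number of genes in brackets) in Old Veh against Young Veh and Old PF4 against Old Veh, with called genes in filled red and the list median as a black line. The anchoring proteins have a median of 0.074 with age, and Akap11 is called in both panels.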

How the data were processed

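Values deposited by the authors are unnormalized read counts for each gene. Per the submitters' notes and the study's methods, unstranded Smart-Seq2 and Nextera libraries of whole hippocampus were trimmed with Trim Galore 0.3.7, aligned to GRCm38 with STAR 2.5.3a and analysed with DESeq2, after removal of libraries of low coverage. The counter was not given in the sources used here. Libraries were grouped by the titles in the labels. The labels do not state that each library is a separate mouse, and p values measure the spread between libraries.

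The quasi-likelihood test of edgeR 4.0.16 (R 4.3.3) was fitted to the 47 libraries in 4 groups, with TMM normalization and filterByExpr, and Benjamini-Hochberg adjusted p values over all 17778 genes were called below 0.05. Unless DESeq2 1.42.0 is named, p values of differences are from edgeR. Standard errors are |log2 fold change| over the root of the F statistic. CPM used TMM-scaled totals, with a prior count of 2 for log2 values. Lengths, which 99.3% of genes tested had, were from GENCODE vM21 on GRCm38. Upstream sequences were from RefSeq on GRCm38, matched by symbol for all 10 genes. The steps were tested on simulated counts.

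Named were the 10 genes, each gene called in a pathway list or else the one of smallest p with age, and the 3 genes most like the member of smallest p. Members and lists were chosen with earlier results of these data known. Alternatives were DESeq2, its size factors, no count filter, a replicate block, fits without the 8 libraries of lowest total count or without each library in turn, the length index or the choroid plexus score as a covariate, and the compared groups alone. An age contrast over both treatments, the longest transcript as length, and leaving out the library of lowest length index in each group were added after seeing the data.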

Additional observations from a re-analysis of the deposited data

Results flagged for a closer look

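Within Old PF4, the only group of at most 10 libraries and so the only one examined for single outlying values, 4 of the 10 genes had a library whose gap to its neighbour exceeded Dixon's critical share of the range. Chance gives such a gap in about 1 in 20 groups of independent normal values. The share of all genes tested with such a gap was not computed, so the count of 4 says little about these genes in particular. Old PF4 8 was the outlying library for 3 of the 4 genes, with the highest Prkar1a (10.5 log2 CPM) and the highest Crebbp (8.61 log2 CPM) and the lowest Prkar1b (8.35 log2 CPM) of the group. These 3 genes were correlated across libraries, so they are not separate events. The gaps were 0.585, 0.63 and 0.54 of the group's range. This library also had the lowest length index of the group, -0.228. For Prkar2b the outlying library was Old PF4 7, with the highest value (6.13 log2 CPM, a gap of 0.509), and without it the log2 fold change of Old PF4 against Old Veh was 0.05 in place of 0.08.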

How the results depend on the processing

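With age, 1 of the 10 genes (Prkar2b) was called. The count was 0 with DESeq2's size factors, without a count filter, with the replicate block, without the 8 libraries of lowest total count and with the compared groups alone, and 3 with the length index as a covariate. It was 1 by DESeq2, with the choroid plexus score and without the library of lowest length index in each group, and 0 to 1 when each library was left out. The adjusted p of Prkar2b was 0.0501 with size factors and 0.0601 without a filter. In the other 4 comparisons 0 genes were called under every alternative run. The number of correlated pairs was 13 in place of 21 without the 4 libraries of lowest length index. No called value changed sign. Values near 0 did. With the replicate block, Prkacb was at 0.005 with age, and Prkar1b and Prkar2a at -0.002 with PF4 in old mice. With the length index, Creb1 was at -0.015 with age, Crebbp at -0.05 with PF4 in old mice and -0.013 with age under PF4, and Ep300 at -0.009 with PF4 in young mice. With the choroid plexus score, Prkar1a was at -0.003 with age. Without the 8 libraries of lowest total count, Crebbp was at -0.022 with PF4 in old mice, Prkacb at 0 with PF4 in young mice and Prkaca at -0.001 for the difference of the PF4 effects. Without the 4 libraries of lowest length index, Prkaca was at 0.006 and Crebbp at -0.015 with PF4 in old mice, and at 0.017 and -0.02 with age under PF4. Averaged over treatments, the age values of Prkacb and Creb1 were 0.02 and -0.016. The cause of these changes was not tested. The labels do not say that a replicate number marks a shared origin, and whether it does was not settled. Libraries with the same number had a median correlation of their deviations of 0.0294 (66 pairs, 26 over 0.1), beside 0.0103 for other pairs. Between the 2 old groups it was 0.187 (10 pairs, 6 over 0.1, 4 of equal age), beside -0.014 for 110 other pairs, 10 of equal age. Of all 666 log2 fold changes recomputed with another setting, those above included, 627 kept their direction and side of the threshold, 15 lost a call, 7 gained one and 17 changed sign. Of 528 list counts, 509 stayed within 1.5 times. Depth limits genes with few reads, such as Sik1, which had as few as 7 in a library.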
